A study of Mus musculus with 8 samples.

Results

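Hormone genes of the pituitary and the hypothalamus were examined in hippocampal RNA. They comprised the pituitary genes Prl, Gh, Pomc, Cga, Tshb and Lhb and the hypothalamic genes Avp, Oxt, Pmch and Hcrt, which are 10 of the 18193 genes that the arrays name, measured by 14 of 45037 probe sets. A probe set was taken where its annotation gave one of these symbols alone, and where a gene had several, the brightest on average stood for it. The genes were selected on their measured values: several of the pituitary hormones had been seen to stand apart on some of these same arrays, and the others were added as their counterparts. Levels and differences below are therefore a description, and no p-value given for them is support for that pattern.

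The study compared Tg6799 mice (MT), which carry mutant human APP and presenilin-1 transgenes under the Thy1 promoter, with littermates (LM). Total RNA from the hippocampus of female mice was hybridised to Affymetrix mouse genome arrays, with 2 arrays in each of LM4m and MT4m (4 months of age) and LM8m and MT8m (8 months). All mice were listed under the strain Tg6799, and the littermates are labelled only as littermate controls. The sources used here do not say if both arrays of a group are of different animals or of pools. The p-values thus set differences between groups only against the spread between arrays of a group, which may be technical. Values are log2 expression values from RMA, a method that corrects, normalizes and summarises the probes of a set, and the number of arrays limits their precision.

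The pituitary makes these hormones in separate cell types. Lactotrophs make prolactin, somatotrophs growth hormone, corticotrophs and melanotrophs the Pomc precursor, and gonadotrophs and thyrotrophs the glycoprotein hormones, each built of the common alpha subunit and a beta subunit of its own. The gland hangs below the hypothalamus, whose neurons make vasopressin, oxytocin, melanin-concentrating hormone and orexin, and none of these hormones is a known major product of hippocampal neurons. Pomc is an exception to the division, since neurons of the hypothalamic arcuate nucleus transcribe it too.

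Of the 10 genes, 9 had a promoter window in the RefSeq table (mouse assembly GRCm38.p6), and there was none for Gh. The windows of the 3 others that stood apart on the arrays are printed here, because these genes moved together. Each is the 250 bases before the start of the gene, 5′ to 3′ and on the plus strand, at chr13:27057320-27057569 for Prl, chr12:3954695-3954944 for Pomc and chr4:34893529-34893778 for Cga. Capitals mark TATAAA, searched on the gene's own strand, and TATNCAT, the core of the element bound by Pit-1, the pituitary factor of lactotrophs, somatotrophs and thyrotrophs, searched on both strands. No 2 marked matches overlapped.
Prl: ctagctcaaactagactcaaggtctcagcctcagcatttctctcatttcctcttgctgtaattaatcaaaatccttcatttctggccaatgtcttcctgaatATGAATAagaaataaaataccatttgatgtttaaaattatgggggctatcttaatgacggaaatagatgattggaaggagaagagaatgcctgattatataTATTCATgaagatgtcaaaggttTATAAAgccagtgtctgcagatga
Pomc: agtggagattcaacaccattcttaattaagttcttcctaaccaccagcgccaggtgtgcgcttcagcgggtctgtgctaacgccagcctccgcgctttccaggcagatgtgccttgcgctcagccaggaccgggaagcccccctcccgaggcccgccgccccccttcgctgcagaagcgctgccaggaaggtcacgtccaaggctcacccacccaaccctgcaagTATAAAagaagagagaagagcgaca
Cga: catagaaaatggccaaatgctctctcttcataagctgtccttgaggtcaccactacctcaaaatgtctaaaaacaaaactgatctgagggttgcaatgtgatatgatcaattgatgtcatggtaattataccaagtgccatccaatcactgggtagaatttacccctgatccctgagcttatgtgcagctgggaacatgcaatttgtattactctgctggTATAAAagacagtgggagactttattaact
TATAAA began 24 bases before the start in Prl, 25 in Pomc and 30 in Cga. It was also found in the windows of Tshb, Lhb, Pmch and Hcrt and not in those of Avp and Oxt, and 7.59% of 32851 promoter windows of the same length held it. TATNCAT matched at 148 and 47 bases before the start of Prl and in no other of the 9 windows, against 7.92% of all windows. TAATCC, a motif of the Pitx type, was also searched on both strands. It matched in none of the 9 windows, against 6.25% of all windows. These matches are letters in a window and were not tested as binding sites.

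Before the hormones, the arrays were checked against their labels. Of 12 hippocampal markers 11 were measured, with a mean level between 6.29 and 6.84 on the 8 arrays; Prox1, a factor of dentate granule cells, lay between 4.86 and 6.08 and Neurod6, of pyramidal neurons, between 8.21 and 8.71. Thy1, part of the transgene, stood at 11.73 and 11.82 in MT4m and at 11.79 in MT8m replicate 2, and between 9.53 and 9.96 on the 4 LM arrays. The library labelled MT8m replicate 1 had 9.90, among the littermates. Cst7, of plaque-associated microglia, and Gfap, of astrocytes, placed it there too, at 1.75 and 7.17. For hormone genes with larger differences, comparisons that include this library are given with and without it, by the set that stood for the gene. Those by other probe sets of a gene are given only with it. Choroid plexus markers, 12 of 12 measured, were high on all 4 LM arrays (mean level 4.97 to 6.23) and lower on all 4 MT arrays (3.18 to 3.46).

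Transcripts of 4 pituitary hormones were abundant on some arrays and scarce on others. Prl, Gh, Pomc and Cga were high on both LM4m arrays and, to a lesser degree, on MT4m replicate 1, while on MT4m replicate 2 and LM8m replicate 1 all 4 were low. Tshb, Lhb, Oxt, Pmch and Hcrt varied little, and Avp had a range of 0.95. In tissue RNA of this kind, fewer cells of a type and less RNA per cell cannot be told apart.

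**Figure D1:**
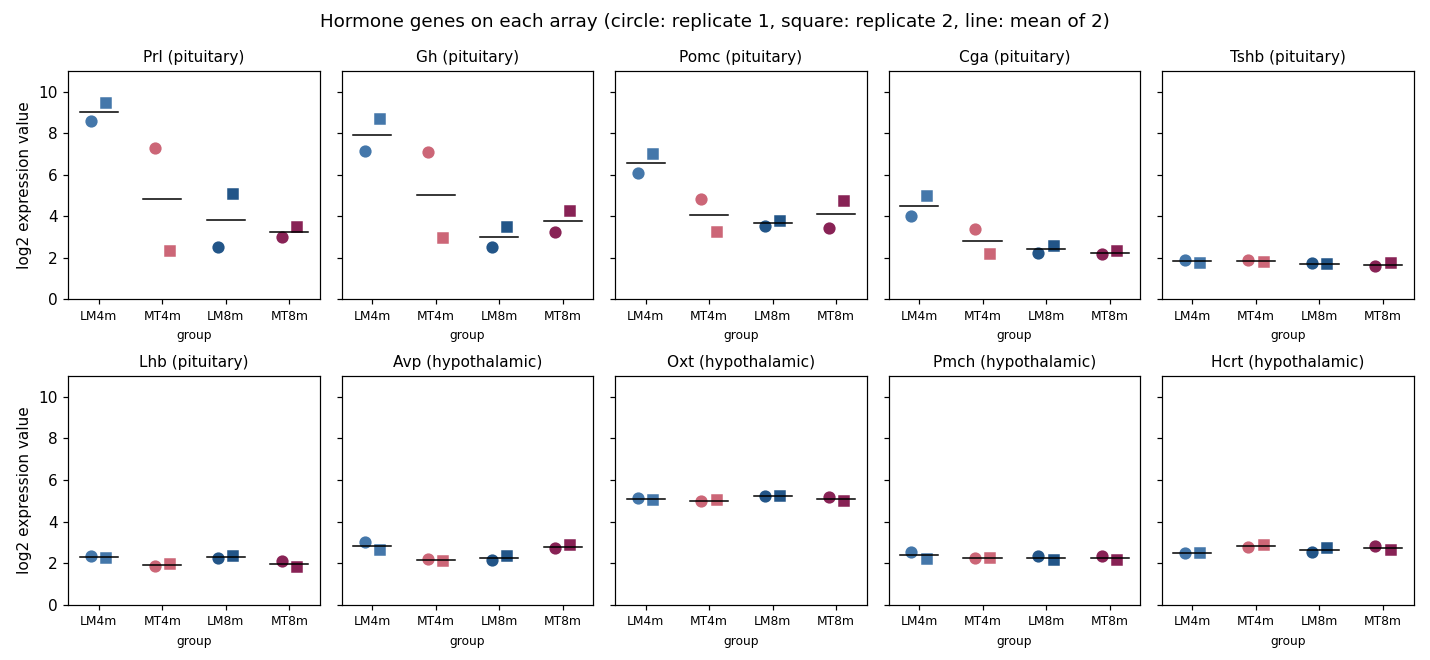
Log2 expression value (y axis) of the 10 hormone genes by group (x axis), 1 panel per gene, with a circle for replicate 1, a square for replicate 2 and a line at the mean of the 2 arrays. Prl, Gh, Pomc and Cga are high in both LM4m arrays and split in MT4m, whereas the other 6 genes stay within 1 unit.

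Prl encodes prolactin, the lactotroph hormone that drives milk production. Its level was 8.59 and 9.46 in LM4m, 7.29 and 2.35 in MT4m, 2.53 and 5.08 in LM8m and 3.00 and 3.51 in MT8m. The LM4m arrays lay above all others, MT4m replicate 1 came next and MT4m replicate 2 was the lowest of all, and LM8m replicate 2 was above both MT8m arrays. The range over the 8 arrays was 7.11, the largest of the 18193 genes, whose median range was 0.49. Its gap between replicates was also the largest of all genes in MT4m and the second largest in LM8m.

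Gh encodes growth hormone, which acts on liver and bone through its receptor Ghr. It was at 7.13 and 8.66 in LM4m, 7.12 and 2.94 in MT4m, 2.53 and 3.47 in LM8m and 3.26 and 4.26 in MT8m. MT4m replicate 1 sat beside LM4m replicate 1 and its own replicate did not, a gap that ranked 2 among all genes. The range of 6.13 ranked 3 among all genes.

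Gh was measured by 4 probe sets, of which 3 carry the suffix _x_at, Affymetrix's mark for probes that also match other sequences. On the 3 arrays where it was high, these 3 sets read between 7.87 and 8.81 in LM4m and between 6.96 and 7.23 in MT4m replicate 1. On the other 5 arrays they read between 1.51 and 4.25. The fall from LM4m to LM8m was -4.89 by the set that stood for the gene and -5.66, -5.84 and -6.16 by the others, all on the log2 scale, so the choice of set did not change which arrays were high.

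Pomc encodes the precursor of adrenocorticotropin and the melanocortins. Its level was 6.09 and 7.01 in LM4m, 4.84 and 3.27 in MT4m, 3.54 and 3.77 in LM8m and 3.46 and 4.74 in MT8m. MT4m replicate 1 was more than 1 unit below both LM4m arrays, and MT8m replicate 2 came close to it. The second Pomc set, again an _x_at set, read 6.998 and 7.18, 4.42 and 2.32, 1.96 and 2.62, and 2.32 and 5.32 in the same order. In this set MT8m replicate 2 was above MT4m replicate 1, which was not so in the first. The range of Pomc was 3.74, rank 17 of all genes.

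**Figure D2:**
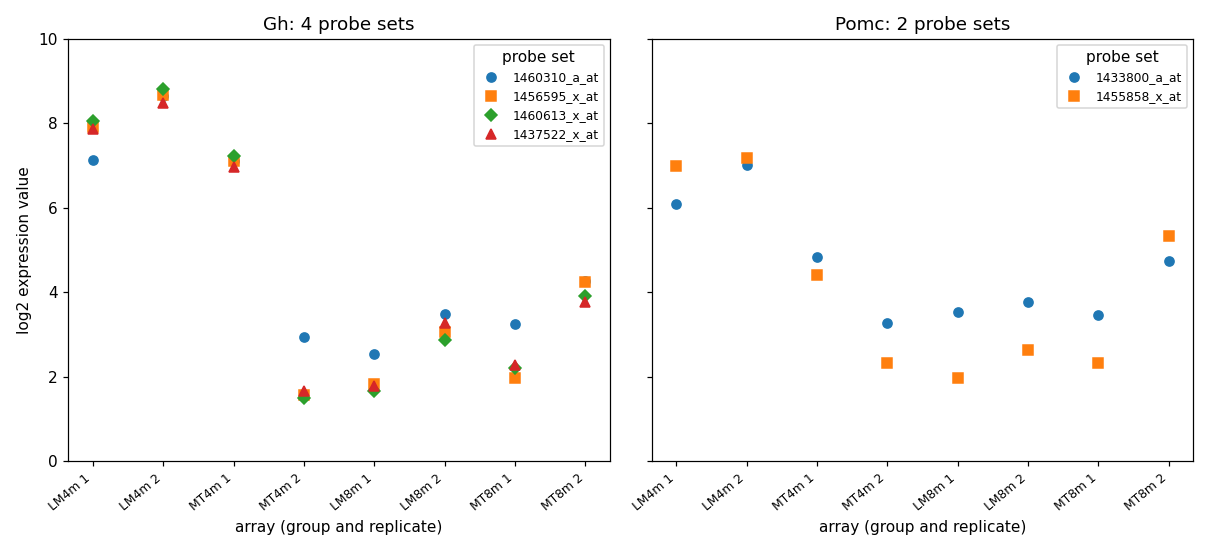
Log2 expression value (y axis) on each array (x axis, group and replicate) for the 4 probe sets of Gh, left, and the 2 of Pomc, right, 1 symbol per probe set. All Gh sets are high on LM4m 1, LM4m 2 and MT4m 1, and MT8m 2 is the highest of the other arrays. Both Pomc sets are highest on LM4m 1 and LM4m 2. MT8m 2 is just below MT4m 1 in the first Pomc set and above it in the second.

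Cga encodes the alpha subunit shared by thyrotropin, luteinizing hormone and follicle-stimulating hormone. It read 4.02 and 4.98 in LM4m, 3.41 and 2.18 in MT4m, 2.24 and 2.58 in LM8m and 2.17 and 2.32 in MT8m. The same 3 arrays were the highest, with a range of 2.81 (rank 66), and the remaining 5 arrays lay between 2.17 and 2.58.

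The partner subunits did not share the pattern. Tshb, the beta subunit of thyrotropin, lay between 1.59 and 1.91 on all arrays, and Lhb, that of luteinizing hormone, between 1.84 and 2.34. Both are below 2.475, the median of the probe set means, and their ranges were 0.32 and 0.51, beside 0.49 for the median gene. Lhb was lower on all 4 MT arrays (1.85 and 1.96 in MT4m, 2.08 and 1.84 in MT8m) than on the 4 LM arrays, of which LM4m replicate 2 was the lowest at 2.24. The share of all genes split in this way was not counted, so nothing is read from it. Fshb, the beta subunit of follicle-stimulating hormone, was not a member and read 1.37 to 1.72.

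Among the hypothalamic genes, Avp, the precursor of the antidiuretic hormone vasopressin, varied most. It was at 3.03 and 2.64 in LM4m, 2.20 and 2.09 in MT4m, 2.15 and 2.36 in LM8m and 2.71 and 2.88 in MT8m. LM4m and MT8m lay above MT4m and LM8m without overlap, an order none of the pituitary genes showed, and the range was 0.95 (rank 1559). How many of all genes had this order was not counted. Oxt, the precursor of oxytocin, read 4.99 to 5.25. Pmch, the precursor of melanin-concentrating hormone, read 2.14 to 2.54, and Hcrt, that of the wake-promoting orexins, 2.48 to 2.87. These 3 had ranges of 0.26, 0.40 and 0.39, below the median of all genes.

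To set the classes side by side, each gene's mean over the 8 arrays was taken from its level and the deviations were averaged per class. The pituitary class deviated by 1.41 and 2.09 in LM4m, 0.80 and -1.18 in MT4m, -1.13 and -0.45 in LM8m and -1.01 and -0.53 in MT8m. The hypothalamic class stayed between -0.09 and 0.16. Pituitary minus hypothalamic was thus 1.25 and 2.13 in LM4m, 0.88 and -1.09 in MT4m, -1.05 and -0.43 in LM8m and -1.12 and -0.57 in MT8m, a difference of log2 deviations. It was above 0 on 3 arrays and below 0 on 5. The pituitary class spanned 3.27 and the hypothalamic 0.25, while Avp alone had a range of 0.95. Avp, Pmch and Hcrt, with means of 2.51, 2.28 and 2.67, lay near the median of the probe set means, where changes may not be seen. On both LM4m arrays all 6 pituitary genes were above their own means, on MT4m replicate 1 5 of them were, and on the other arrays 0 or 1. The class mean rests on Prl, Gh, Pomc and Cga, since Tshb and Lhb hardly moved.

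**Figure D3:**
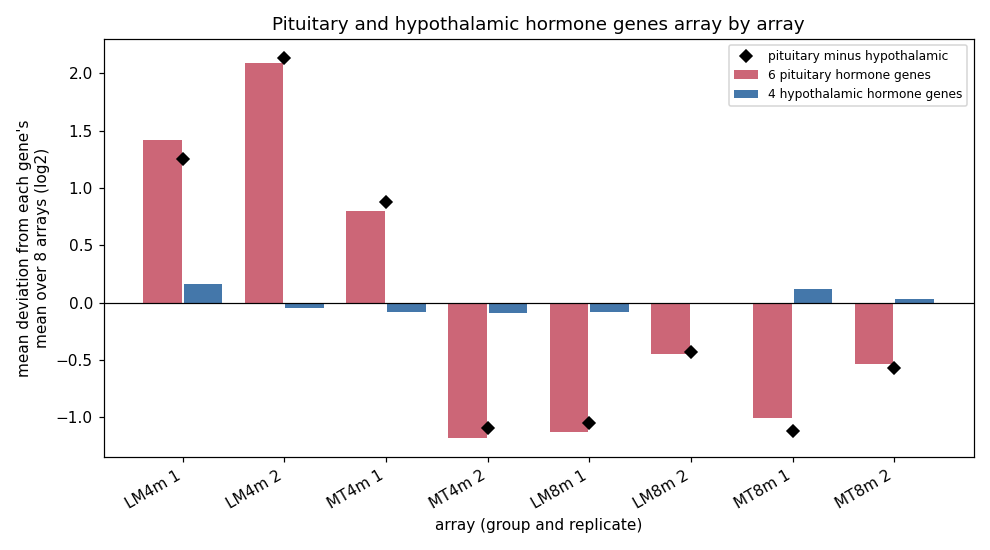
Mean deviation from each gene's own 8-array mean (y axis, log2) on each array (x axis, group and replicate). Bars show the 6 pituitary and the 4 hypothalamic genes, diamonds the difference between the classes, which is above 0 on LM4m 1, LM4m 2 and MT4m 1 only.

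Age was compared within each genotype as 8 minus 4 months. In littermates the log2 difference was -5.22 ± 1.38 (SE, 2 arrays a group) for Prl, -4.89 ± 1.14 for Gh, -2.90 ± 0.56 for Pomc and -2.09 ± 0.41 for Cga. With 1 of these 4 arrays left out, Prl lay between -3.94 (without LM8m replicate 1) and -6.49 (without LM8m replicate 2), Gh between -4.13 and -5.66, Pomc between -2.44 and -3.36 and Cga between -1.61 and -2.57. At 8 months the lowest levels of Prl, Gh and Cga were near the median of the probe set means, so no exact fold is given. Both LM4m arrays lay above both LM8m arrays for these 4 genes and for Tshb and Avp (-0.58 ± 0.17), which is 6 of 10 genes, against 15.4% of all probe sets. These arrays were in view when the genes were chosen, so nothing is read from that count. Of the 10 genes 0 passed limma at a Benjamini-Hochberg adjusted p under 0.05, and 0 of 45037 probe sets did (0%; 1554 at an unadjusted p under 0.05). The adjusted p was 1 for every member.

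In mutants the same comparison gave -1.57 ± 1.38 for Prl, -1.27 ± 1.14 for Gh, 0.05 ± 0.56 for Pomc and -0.55 ± 0.41 for Cga, each smaller than 2 standard errors. These values rested on single arrays. Without MT4m replicate 1 the differences were 0.90, 0.82, 0.83 and 0.07, all above 0, and without MT4m replicate 2 they were -4.04, -3.36, -0.74 and -1.16. Leaving out the library labelled MT8m replicate 1 gave -1.31, -0.77, 0.69 and -0.47, and Pomc was -0.59 without MT8m replicate 2. Avp was higher at 8 months by 0.65 ± 0.17 (0.74 without that library), with a limma adjusted p of 0.826 over all arrays. Again 0 of 10 members and 0% of probe sets passed, with 2567 at an unadjusted p under 0.05.

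Averaged over the genotypes, the log2 difference at 8 months was -3.39 ± 0.98 for Prl, -3.08 ± 0.81 for Gh, -1.43 ± 0.39 for Pomc and -1.32 ± 0.29 for Cga. It was -2.16, -2.04, -1.03 and -1.01 without MT4m replicate 1 and -4.63, -4.12, -1.82 and -1.62 without MT4m replicate 2, and Prl ran from -2.76 to -4.03 without either LM8m array. Their limma adjusted p-values ran from 0.538 to 0.637, and leaving out the library labelled MT8m replicate 1 gave differences of -3.26, -2.83, -1.11 and -1.28. The other 6 genes differed by at most 0.15 in size. The median over the pituitary genes was -1.37 and over the hypothalamic genes 0.03, beside 0.00 over all 18193 genes. Of the members and of all probe sets 0 passed (0%; 2920 at an unadjusted p under 0.05).

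**Figure D4:**
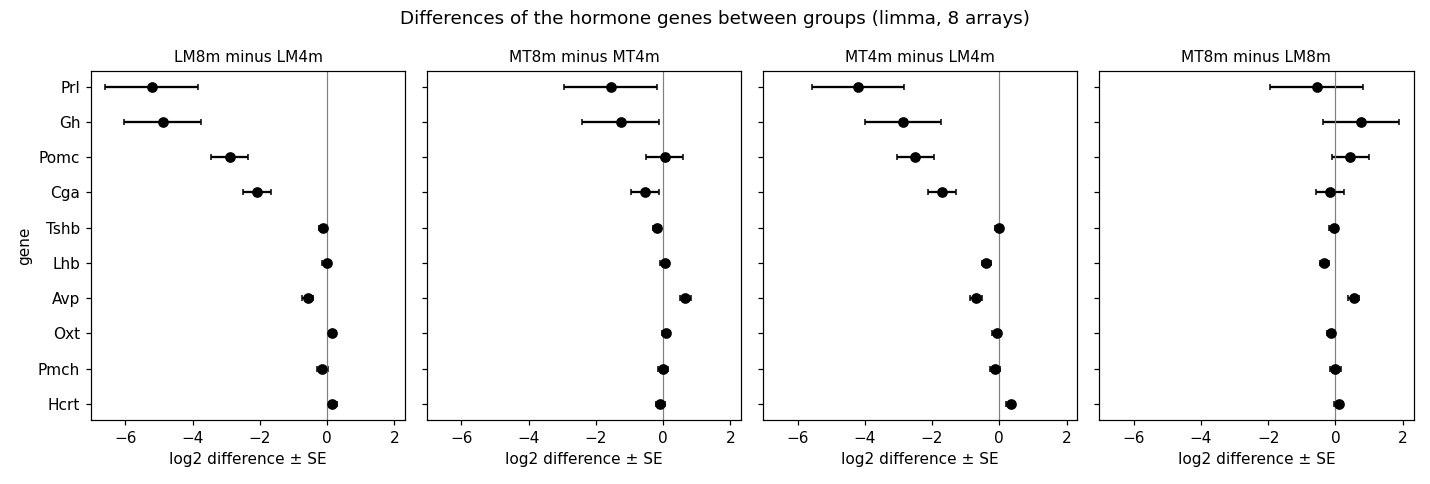
Log2 difference with its standard error (x axis; limma, 2 arrays a group, all 8 arrays sharing the spread) for the 10 hormone genes (y axis) in 4 comparisons named above the panels. Prl, Gh, Pomc and Cga lie far below 0 in LM8m minus LM4m and in MT4m minus LM4m, and all 10 genes lie within 1 unit of 0 in MT8m minus LM8m.

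Genotype was compared as MT minus LM at each age. The tables of genes issued with the study give these arrays the opposite genotype names, so the signs here oppose theirs. At 4 months, Prl differed by -4.20 ± 1.38, Gh by -2.86 ± 1.14, Pomc by -2.50 ± 0.56 and Cga by -1.70 ± 0.41, all lower in MT4m, but the MT4m arrays did not resemble each other. Without MT4m replicate 2 these differences were -1.73, -0.78, -1.72 and -1.09, and without MT4m replicate 1 they were -6.67, -4.95, -3.29 and -2.32. Avp differed by -0.69 ± 0.17. The limma adjusted p-values of these 5 genes ran from 0.856 to 0.944, and 0 of 10 members and 0% of probe sets passed, with 2188 at an unadjusted p under 0.05.

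At 8 months the second Pomc set differed by 1.53 ± 0.91 between the genotypes, with all arrays included. In this set the library labelled MT8m replicate 1 read 2.32 and MT8m replicate 2 read 5.32, against 1.96 and 2.62 in LM8m. The difference of this set thus depends on whether that library is kept, and its value without it is not given here. In the sets that stood for the 4 variable pituitary genes, the genotype differences were smaller than their standard errors. The difference was -0.55 ± 1.38 for Prl, 0.76 ± 1.14 for Gh, 0.44 ± 0.56 for Pomc and -0.16 ± 0.41 for Cga, and leaving out the library labelled MT8m replicate 1 made it -0.29, 1.26, 1.08 and -0.09. Prl turned to 0.72 without LM8m replicate 2, and Pomc to -0.20 without MT8m replicate 2. Lhb was lower in MT8m (-0.33 ± 0.13, or -0.45 without the library in doubt), and Avp was higher in MT8m by 0.54 ± 0.17 (0.63). All members had a limma adjusted p of 1.00 to the second decimal, and 0 of 10 passed, beside 9 of all probe sets (0.02%). That number was 95 without the library labelled MT8m replicate 1, with 0 members among them.

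Averaged over the ages, the log2 difference was -2.38 ± 0.98 for Prl, -1.05 ± 0.81 for Gh, -1.03 ± 0.39 for Pomc and -0.93 ± 0.29 for Cga. All 4 averages were lower in mutants. At 4 months all 4 genes were lower in MT4m, whereas at 8 months Gh (0.76) and Pomc (0.44) were higher in MT8m. The averaged differences rest on single arrays. In the same order they were -1.14, -0.01, -0.64 and -0.63 without MT4m replicate 2. Without MT4m replicate 1 they were -3.61, -2.10, -1.42 and -1.24. Prl was -1.74 without LM8m replicate 2. Leaving out the library labelled MT8m replicate 1 gave -2.25, -0.80, -0.71 and -0.90. Lhb, with -0.36 ± 0.09, had the lowest limma adjusted p of the 10 genes in this contrast, 0.726, or 0.265 with the library labelled MT8m replicate 1 left out. Of the members 0 passed, and of all probe sets 27 did (0.06%), or 142 without that library. In the interaction of genotype and age 0 members and 0% of probe sets passed, with 1162 at an unadjusted p under 0.05. The second Pomc set gave 5.25 ± 1.29 there, and the other Gh sets gave between 4.37 and 4.85. These values include the library labelled MT8m replicate 1. Among the sets that stood for the genes, the largest values were 3.65 ± 1.95 for Prl, 3.62 ± 1.61 for Gh and 2.94 ± 0.79 for Pomc. Without MT4m replicate 2 they were 1.18, 1.53 and 2.16, without MT4m replicate 1 6.12, 5.71 and 3.73, and without the library labelled MT8m replicate 1 3.91, 4.12 and 3.58. For Prl the value ran from 2.38 to 4.93 without either LM8m array, and for Gh from 2.86 to 4.39 without either LM4m array.

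Genes that control pituitary cells or receive signals there varied less than the 4 hormones, and none had a range of 1 or more. Of 24 listed regulators and receptors 21 were measured, with a mean level between 2.23 and 2.40 on all arrays and a median averaged age difference of 0.05, and 0 passed limma in any contrast. Sstr2, a somatostatin receptor gene, was highest in LM4m, at 3.89 and 3.79 against 3.24 and 3.12 in MT4m, 3.49 and 3.36 in LM8m and 3.27 and 3.16 in MT8m. Its averaged genotype difference was -0.44 ± 0.09 (limma adjusted p = 0.402), or -0.46 without the library labelled MT8m replicate 1. Crhr1, the receptor of corticotropin-releasing hormone, stood at 4.26 on LM4m replicate 1 and between 3.35 and 3.51 elsewhere, and Trhr, that of thyrotropin-releasing hormone, ran from 3.97 to 4.96 and was highest on MT4m replicate 1. Tbx19, the factor of corticotrophs and melanotrophs, read 1.90 and 1.95 in LM4m and 1.72 to 2.37 elsewhere. Pitx1 (1.68 to 2.22), Lhx3 (1.74 to 2.32), the growth hormone releasing hormone receptor gene Ghrhr (1.73 to 2.37) and Drd2 (1.94 to 2.59), the dopamine receptor of lactotrophs, lay in the same low range, around the median of the probe set means, where changes may not be seen. Pou1f1, which encodes Pit-1, was not analysed here, as the annotation gave no probe set to it alone.

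Among the enzymes and granule proteins that process prohormones, 11 of 12 were measured and 0 passed limma in any contrast. Pcsk1, the convertase that cuts Pomc, was at 2.93 and 2.70 in LM4m, 2.02 and 2.38 in MT4m, 1.89 and 2.27 in LM8m and 2.27 and 1.88 in MT8m, so the LM4m arrays were the highest. Pam, which amidates peptide ends, was also highest there, at 6.82 and 6.70 against 6.04 to 6.39 on the other arrays. Neither Pcsk1 nor Pam was raised on MT4m replicate 1. The carboxypeptidase gene Cpe and the granule genes Scg2, Scg3 and Scg5 had ranges of at most 0.54, while Chga (0.73), Pcsk1n (0.75), Chgb (1.01) and Vgf (1.34) varied more. Of these, Vgf was highest on LM4m replicate 2 (7.74) and lowest on MT8m replicate 2 (6.41), and Chgb was lowest on LM4m replicate 1 (9.41). The median averaged age difference of the list was -0.01.

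Of the hormone receptors 14 of 17 were measured and 0 passed in any contrast, with a median averaged age difference of -0.02 and a mean level between 2.36 and 2.45. Ghr, the growth hormone receptor, read 4.60 and 4.31 in LM4m and 3.80 to 4.56 elsewhere. The hypothalamic regulators, 13 of 14 measured, had a mean level between 2.01 and 2.11, and 0 passed. Sim1 and Otp, factors of the neurons that make vasopressin and oxytocin, stayed between 1.93 and 2.47.

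Other hypothalamic peptides, 14 of 19 measured, had a mean level between 3.12 and 3.63, a median averaged age difference of -0.15 and 0 calls. Several of them are also made by hippocampal interneurons. Crh, the corticotropin-releasing hormone, was at 3.06 and 2.86 in LM4m, 3.16 and 2.76 in MT4m, 2.38 and 2.16 in LM8m and 2.25 and 2.14 in MT8m. Its averaged age difference was -0.73 ± 0.12 (limma adjusted p = 0.393). Nts, encoding neurotensin, differed by -0.65 ± 0.13 (limma adjusted p = 0.459) and Vip, encoding vasoactive intestinal peptide, by -0.56 ± 0.20 (limma adjusted p = 0.696). Leaving out the library labelled MT8m replicate 1, these 3 differences were -0.76, -0.65 and -0.58. MT4m replicate 2, where Prl and Gh were low, had Crh at 2.76, just below LM4m replicate 2.

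**Figure D5:**
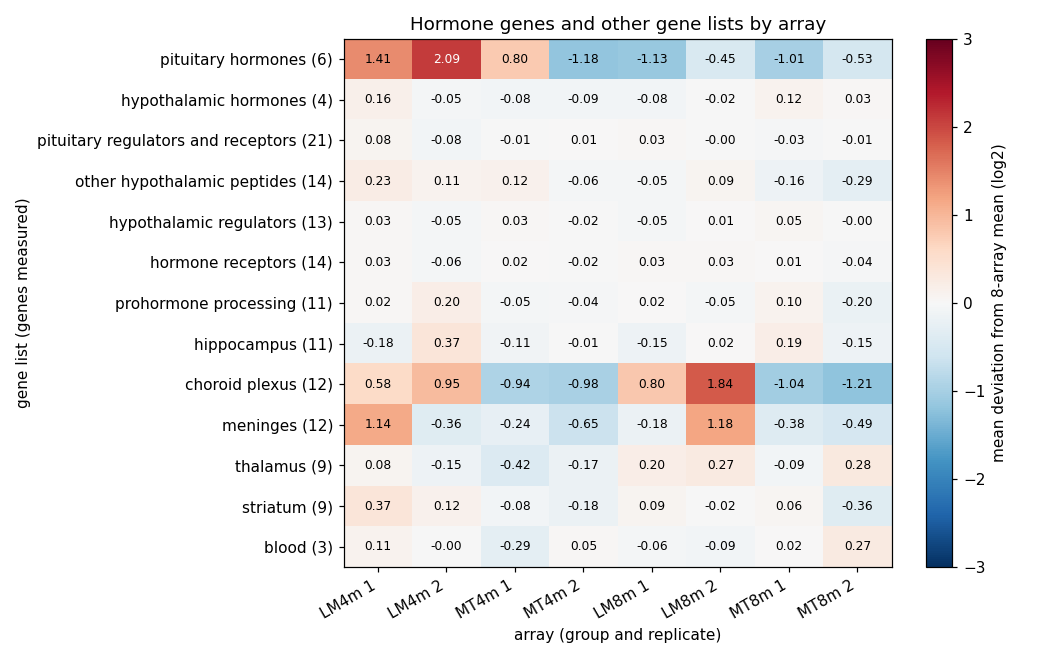
Mean deviation from the 8-array mean (colour and printed value, log2) of the hormone classes and 11 gene lists (rows, with the number of genes measured) on each array (columns, group and replicate). The pituitary hormones are high on LM4m 1, LM4m 2 and MT4m 1, whereas the choroid plexus list is high on all 4 LM arrays and the meninges list on LM4m 1 and LM8m 2.

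Markers of tissue around the hippocampus were set beside the hormones. In the averaged genotype contrast 9 of 12 choroid plexus genes passed limma as lower in mutants (median of the list -1.98), and 9 did without the library labelled MT8m replicate 1. They were Ttr, which encodes the thyroxine carrier transthyretin (-1.90 ± 0.10, limma adjusted p = 0.00151), Kcnj13, Clic6, Folr1, Sostdc1, Cldn2, F5, Otx2 and Aqp1. The list was high in both LM8m arrays, where the pituitary hormones were low, and low on MT4m replicate 1, where they were high. The meninges list had its highest mean levels on LM4m replicate 1 (5.20) and LM8m replicate 2 (5.23), against 3.41 to 3.87 on the other 6 arrays. Of the thalamus and striatum lists 9 genes each were measured, and of the blood list 3 of 6. Their mean levels (3.60 to 4.30, 4.12 to 4.86 and 1.72 to 2.29) differed by less than 0.5 between the MT4m arrays. Single genes could differ more, such as Zic1 of the thalamus list, at 4.48 on MT4m replicate 1 and 5.72 on MT4m replicate 2. The difference between the 3′ and 5′ control probes of Gapdh, a sign of RNA quality, was largest on LM4m replicate 1 (2.19) and lay between 0.66 and 1.42 on the others. It was 1.01 and 0.99 on the 2 MT4m arrays. The part of these measures in the hormone levels was not tested.

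The genes whose pattern over the 8 arrays was most like each of the 4 variable hormones were mostly the other 3. Over 1311 genes with a range of at least 1, Pearson's r with Prl was 0.96 for Cga (Spearman's rho 0.93), 0.96 for Gh (0.95) and 0.91 for Pomc (0.95). Without the 2 LM4m arrays, which lie farthest out, r was 0.97, 0.90 and 0.70. Between Gh and Cga r was 0.95, between Gh and Pomc 0.94 and between Pomc and Cga 0.95. Without the LM4m arrays these were 0.93, 0.84 and 0.70. The 8 arrays fall into high and low ones and share their normalization, so these values are a description.

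Below the hormones, Tmem87a (r = 0.91) and Eef1akmt1 (0.88) came next for Prl, and Pttg1 and Egr3 (0.88 each) for Gh. For Pomc they were Ier5 (0.86) and Cyp11a1 (0.86), and for Cga Ier5 and Inhba (0.92 each). Without the LM4m arrays r was 0.73 for Eef1akmt1, 0.97 for Pttg1, 0.72 for Egr3, 0.58 for Cyp11a1 and 0.78 for Inhba. Tmem87a, a transmembrane protein gene, was at 5.97 and 6.14 in LM4m, 6.69 and 3.41 in MT4m, 3.33 and 5.68 in LM8m and 3.62 and 3.60 in MT8m. It split MT4m and LM8m as Prl did, and r without the LM4m arrays was 0.98. Pttg1, which encodes securin, the inhibitor of separase, was at 4.996 and 7.93, 7.66 and 4.18, 3.97 and 4.60, and 3.95 and 4.53 in the same order, so the LM4m arrays differed from each other. Ier5, an immediate early gene, was like Pomc and Cga through the LM4m arrays alone: r without them was -0.16 and 0.27.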

How the data were processed

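RNA of 8 hippocampal samples was measured on 1 array each. The authors used RMA in the R package affy, whose version is not given in the sources used here. The log2 values they deposited cover 45101 probe sets, and the 64 Affymetrix controls among them were left out. Scanner files and detection calls were not used here. The median of the probe set means (2.475) is lower than RMA usually gives, so where the log2 scale starts is not known, and differences of dim probe sets may be compressed. Array medians lay between 2.44 and 2.51.

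The 45037 remaining probe sets were fitted with limma 3.58.1 (lmFit, eBayes) in R 4.3.3, with 4 group means over all 8 arrays and 7 contrasts. The p-values are two-sided, adjusted by Benjamini-Hochberg over all probe sets, and called under 0.05. The annotation gave 1 symbol for 34945, several for 932 and none for 9160 probe sets. For 34741 the symbol was taken by Entrez identifier from a RefSeq table (GRCm38.p6), whether or not it differed from the annotation.

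The members and lists were chosen with earlier results of these data known. Named were the 10 members with all their probe sets, Thy1, Cst7 and Gfap, from each list any called gene and, where the text turned on them, up to 4 with the largest averaged age difference and up to 4 with the largest averaged genotype difference or range, and for hormone genes with a range of at least 2 the 5 genes most correlated with them. Further list genes (Tbx19, Pitx1, Lhx3, Ghrhr, Drd2, Fshb, Sim1, Otp, Ghr, Cpe, Chga, Scg2, Scg3, Scg5, Prox1, Neurod6) were named for their known role after their values were seen. The fit was tested on simulated data. Alternatives were cyclic loess, leaving out dim probe sets, keeping 1 per gene, a robust trended prior, fitting the 2 groups compared alone, leaving out each array, and a block for the title number.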

Additional observations from a re-analysis of the deposited data

Results flagged for a closer look

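Avp was the one hormone gene whose genotype difference turned with age in every array. At 4 months both MT arrays (2.20 and 2.09) were below both LM arrays (3.03 and 2.64), and at 8 months both MT arrays (2.71 and 2.88) were above both LM arrays (2.15 and 2.36). The log2 difference at 8 months minus that at 4 months was 1.23 ± 0.23 (SE), with an unadjusted p of 0.000658 and a limma adjusted p of 0.99994 over all probe sets, so it did not pass. It lay between 1.03 and 1.43 with each array left out, and was 1.32 without the library labelled MT8m replicate 1. Avp is dim, with a mean of 2.51 beside a median of 2.475 over probe sets. It was flagged by this order of its own arrays, and the share of all genes with such a turn was not counted. The unadjusted p and the range with each array left out come from those same values and are a description only.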

How the results depend on the processing

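Under 14 alternatives, 899 member differences were recomputed and 0 were called; the limma adjusted p ran from 0.265 (Lhb, averaged genotype difference, without the library labelled MT8m replicate 1) to 1. With the title number as a replicate block, 0 members were called in each age contrast and in the interaction, and the adjusted p of Prl in the averaged age contrast was 0.46. The correlation of deviations between arrays of the same number was 0.24 in LM and -0.17 in MT. With 2 arrays a group it cannot settle whether the numbers pair the arrays, and no numbers are shared across genotypes. Over all probe sets, calls ran from 0 to 24 for genotype at 4 months, 0 to 95 at 8 months, 5 to 142 averaged over ages, 0 to 2 for age in mutants, 0 to 1 for the averaged age difference and for the interaction, and 0 in all for age in littermates. With members below the median of the probe set means left out (Tshb, Lhb and Pmch), pituitary minus hypothalamic became 1.90 and 3.14 in LM4m, 1.34 and -1.64 in MT4m, -1.59 and -0.73 in LM8m and -1.60 and -0.81 in MT8m. In the age contrast of the mutants, Prl, Gh and Cga changed sign without MT4m replicate 1, since a group holds only 2 arrays.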
